A study of Mus musculus with 12 samples.

Results

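Axon regeneration-associated genes are genes that a neuron switches on when its axon is cut and that accompany regrowth of the axon. The 9 described here were chosen by their gene symbols from the deposited expression tables: Jun, Atf3, Sox11 and Klf6, which encode transcription factors, Gap43, Basp1 and Stmn2, which encode proteins of the growth cone, and Sprr1a and Gal, which are induced strongly in injured neurons. Each matched 1 of the 57180 rows of the tables, and all 9 were among the 17820 genes with enough counts to be tested. Their transcripts were measured by bulk paired-end RNA sequencing of compression-injured spinal cord from female C57BL/6J wild type mice, 12 libraries in all.

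The cord was compressed with a clip at T9-T10, and the lesion with about 0.5 cm of cord on either side was collected 7 days later, so every group carries the injury. SCI7 mice (4 libraries) had the injury alone. OVX2_SCI7 mice (4 libraries) had been ovariectomised 2 weeks before the injury, and OVX8_SCI7 mice (4 libraries) 8 weeks before it. The ovaries make most of the oestrogen in the blood, and the comparisons ask whether the injured cord differs after short or long hormone loss. The labels call the 4 libraries of a group biological replicates and do not say whether animals were pooled. They give the age of every mouse as 8 weeks, without saying at which procedure, so age at injury may differ between groups together with hormone loss and time since surgery. No uninjured cord and no sham-operated group was analysed here, so induction of these genes by the injury itself was not measured.

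After peripheral nerve injury, a kinase cascade from the damaged axon reaches Jun, which pairs with other leucine zipper proteins such as Atf3 and turns on genes of growth. Sensory and motor neurons with peripheral axons mount this response fully, whereas most neurons of the central nervous system mount it weakly. The cord segment sampled here holds cell bodies of spinal neurons, axons passing through, roots at its surface, and many glial, immune and connective tissue cells, some of which also express Jun, Atf3 and Klf6. A lower level in such tissue cannot be told apart from fewer cells of a type, since bulk sequencing does not separate the number of cells from the RNA in each.

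Promoters are shown for the 5 genes whose window held a match to the elements named below. Jun and Atf3 belong to the leucine zipper factors that bind sites of this kind, and Jun and Sox11 are the pair that differed between groups below. Each window is the 250 bases before the gene's start from RefSeq, in the build GRCm38.p6, which is older than the GRCm39 build of the deposited tables. Windows were at hand for 7 of the 9 genes, all but Gap43 and Stmn2, and those of Basp1 and Gal, without a match, are not shown. Capitals mark matches on either strand to TGANTCA, the AP-1 element, to TGACNTCA, a form of the cyclic AMP response element, or to TTACGTCA, a variant bound by ATF proteins.
Jun (chr4:95052223-95052472, minus strand): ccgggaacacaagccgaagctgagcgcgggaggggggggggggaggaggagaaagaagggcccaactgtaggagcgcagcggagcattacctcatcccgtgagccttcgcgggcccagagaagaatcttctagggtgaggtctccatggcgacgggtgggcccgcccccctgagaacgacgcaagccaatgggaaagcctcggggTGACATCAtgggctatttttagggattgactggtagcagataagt
Sox11 (chr12:27342719-27342968, minus strand): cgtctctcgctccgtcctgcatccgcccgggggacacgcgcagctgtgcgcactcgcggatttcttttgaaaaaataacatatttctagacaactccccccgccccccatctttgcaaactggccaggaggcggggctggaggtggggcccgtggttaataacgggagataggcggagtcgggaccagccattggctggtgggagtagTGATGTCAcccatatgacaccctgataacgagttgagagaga
Klf6 (chr13:5861239-5861488, plus strand): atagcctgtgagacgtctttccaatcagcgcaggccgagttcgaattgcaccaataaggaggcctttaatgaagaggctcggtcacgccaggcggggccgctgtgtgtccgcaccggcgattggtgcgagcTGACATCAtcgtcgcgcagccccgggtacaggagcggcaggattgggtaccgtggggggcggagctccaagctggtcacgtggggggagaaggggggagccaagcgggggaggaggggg
Sprr1a (chr3:92485882-92486131, minus strand): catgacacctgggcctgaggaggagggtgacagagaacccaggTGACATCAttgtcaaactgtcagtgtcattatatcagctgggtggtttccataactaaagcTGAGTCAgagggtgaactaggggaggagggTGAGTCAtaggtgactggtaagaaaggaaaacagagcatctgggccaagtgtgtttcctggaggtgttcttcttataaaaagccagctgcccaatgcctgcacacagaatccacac
Atf3 (chr1:191183334-191183583, minus strand): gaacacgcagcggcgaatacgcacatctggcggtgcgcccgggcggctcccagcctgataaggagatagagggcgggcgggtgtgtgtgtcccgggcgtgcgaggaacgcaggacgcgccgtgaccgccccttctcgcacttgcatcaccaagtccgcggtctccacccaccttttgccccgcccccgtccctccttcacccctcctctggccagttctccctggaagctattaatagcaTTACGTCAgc

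The Jun window held TGACATCA with its first base 45 bases before the start. The Sox11 window held the same 8 letters on the other strand, read here as TGATGTCA, 42 bases before the start. Klf6 had TGACATCA 119 bases before its start and Sprr1a 207 bases before. In all, 4 of the 7 windows held TGACNTCA, each time as TGACATCA, against 7.49% of 32851 windows of the same length for TGACNTCA and 2.93% for TGACATCA, the latter letters being chosen after the sequences were seen. Sprr1a also held TGAGTCA at 146 and 116 bases before the start, where 6.75% of windows hold TGANTCA. The Atf3 window held TTACGTCA 10 bases before the start, letters found in 0.447% of windows. No match was found in the windows of Basp1 and Gal, which says only that these letters are not there. A match describes the letters and does not show binding. Jun and Sox11 are both single-exon genes in the annotation of the same build, and Jun is overlapped on the opposite strand by Junos. Whether strand was used in counting is not given in the sources used here, and Junos held 11 to 32 counts per library against at least 1037 for Jun.

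Levels between genes were compared in TPM, a transcript abundance scaled to the library, which accounts for length. Averaged over the 12 libraries, the growth cone genes stood highest, with Stmn2 at 218 TPM, Gap43 at 159 TPM and Basp1 at 147 TPM, and Sprr1a followed at 115 TPM. Jun at 56.7 TPM, Atf3 at 45.2 TPM, Klf6 at 32.4 TPM and Gal at 30.3 TPM formed a middle tier. Sox11 stood far below at 2.12 TPM, ranking 14541 of the 17820 genes, while Stmn2 ranked 561. The median gene tested stood at 13.7 TPM, so 8 of the 9 lay above it.

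Within groups, neighbours in this order often overlapped. In SCI7, Stmn2 stood at 252 ± 108 TPM (SD, n = 4), Gap43 at 163 ± 31.6 TPM, Basp1 at 128 ± 8.36 TPM and Sprr1a at 108 ± 32.1 TPM, and the spreads of these neighbours met. In OVX8_SCI7, Basp1 at 167 ± 42.8 TPM, Stmn2 at 159 ± 28.8 TPM and Gap43 at 147 ± 30.5 TPM stood level within their spread. Sox11 was lowest of the 9 in each group, at 3.26 ± 0.718 TPM in SCI7, 1.85 ± 0.640 TPM in OVX2_SCI7 and 1.26 ± 0.204 TPM in OVX8_SCI7. Gal came closest in a single library, at 3.82 TPM in replicate 1 of OVX2_SCI7, where Sox11 stood at 2.22 TPM.

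**Figure D1:**
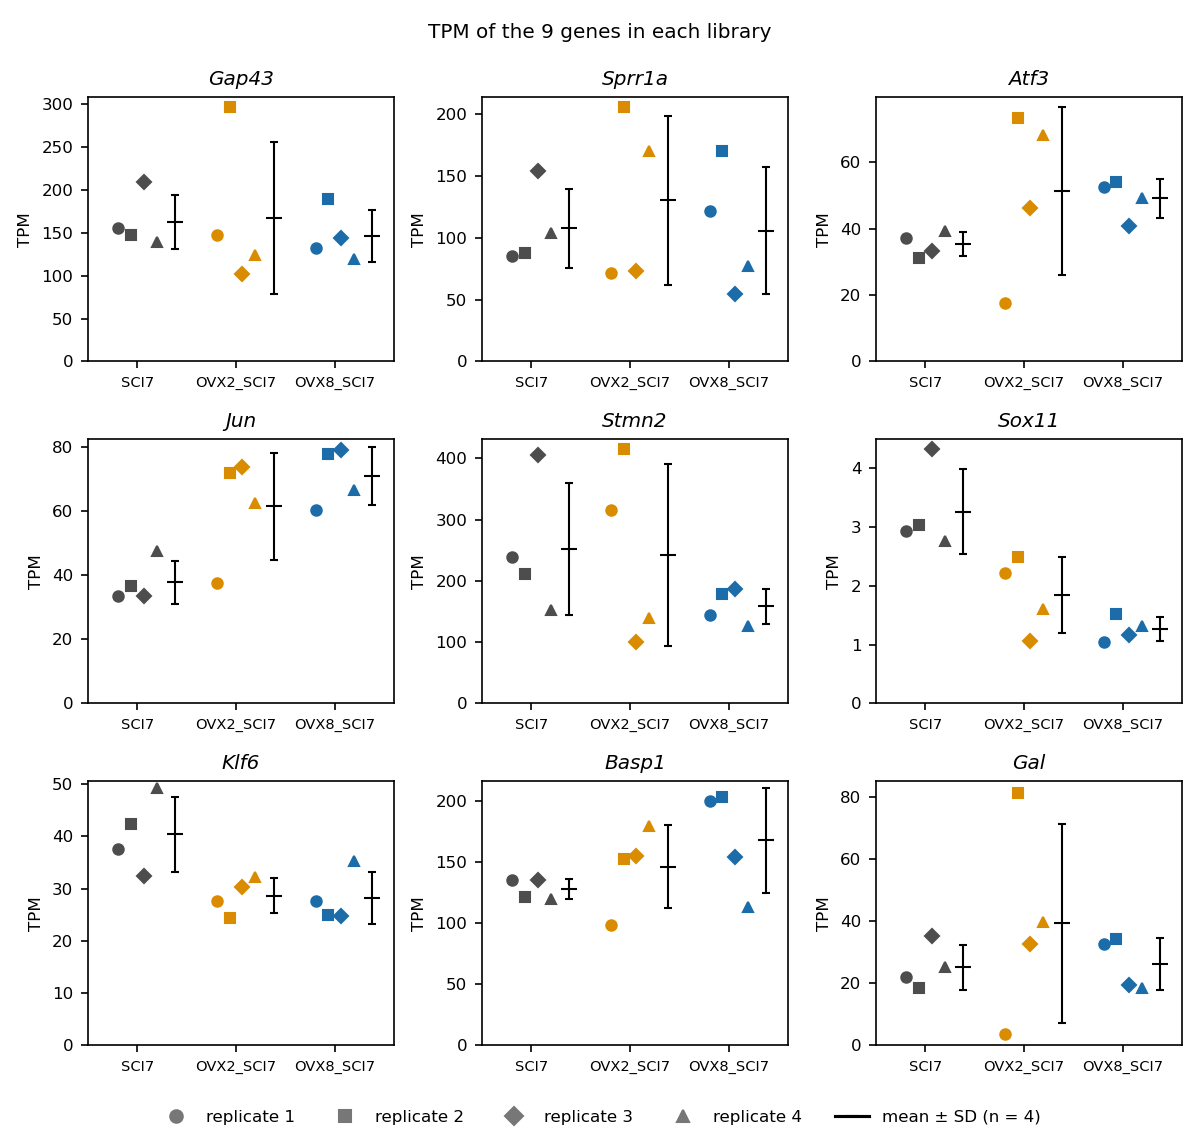
TPM of each of the 9 genes in the 12 libraries (points, replicate number by symbol), with the mean ± SD of each group of 4 at its right and each vertical axis starting at 0. For Jun all OVX8_SCI7 points lie above all SCI7 points, for Sox11 they lie below, and Gal spans 3.82 to 81.3 TPM within OVX2_SCI7.

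The libraries differed in ways that bear on these genes. Totals ran from 18222729 to 31781695 counts. In SCI7 the level of a gene relative to its mean over the 12 libraries fell with the GC content of its transcript in every library (Spearman correlation across genes -0.849 to -0.531), and in OVX8_SCI7 it rose with it (0.181 to 0.87). In OVX2_SCI7, replicate 1 was at -0.441 and the other 3 at 0.407 to 0.543. Mitochondrial transcripts took 5.35 to 9.35% of counts in SCI7 and 2.2 to 3.36% in OVX8_SCI7. A per-library offset for GC content and transcript length was therefore fitted as an alternative. It removes each library's trend on both, and with it any difference between groups that follows GC content or length. Spinal cord identity was plain in every library, with summed levels of 1090 TPM or more for 10 pan-neuronal markers, 2950 TPM or more for 7 astrocyte markers and 10646 TPM or more for 6 oligodendrocyte markers, and no marker of these lists at 0 throughout.

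Jun, the core AP-1 subunit and target of the kinase JNK, was higher in OVX8_SCI7 than in SCI7. Its level in CPM, the count scaled to library size with TMM factors, was 67.4, 62.5, 56.5 and 78.6 in the SCI7 libraries and 122, 139, 133 and 112 in the OVX8_SCI7 libraries. The groups did not overlap, with OVX8_SCI7 at 127 ± 11.9 CPM against 66.3 ± 9.35 CPM (SD, n = 4). The rise was 1.91-fold, a log2 fold change of 0.93 (95% interval 0.45 to 1.41), with an adjusted p of 0.0155 in the quasi-likelihood test of edgeR. In OVX2_SCI7 the libraries stood at 66.2, 115, 155 and 129 CPM. Replicates 2, 3 and 4 lay above all of SCI7, and replicate 1 lay inside the SCI7 range. This difference had a log2 value of 0.81 (95% interval 0.33 to 1.29) and an adjusted p of 0.0539 by edgeR, just above the threshold of 0.05.

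The Jun call in OVX8_SCI7 did not hold in 2 kinds of setting. Without replicate 2 of OVX8_SCI7 the log2 fold change was 0.89 with an adjusted p of 0.0578 by edgeR. With the GC and length offset it was 0.39 (95% interval 0.11 to 0.67), with an unadjusted p of 0.0103 and an adjusted p of 0.196 by edgeR. Each of these fits called 0 of all genes tested in this comparison. The transcript of Jun has a GC content of 55.5%, against a median of 49.8% over the genes tested. Summed levels of 10 microglia and macrophage markers ran from 1272 to 3762 TPM in SCI7 and from 3830 to 4853 TPM in OVX8_SCI7, also without overlap. The part of these cells in the Jun difference was not tested.

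Sox11, a transcription factor of developing neurons that returns in injured sensory neurons, was lower in OVX8_SCI7 than in SCI7. The SCI7 libraries stood at 16.0, 14.1, 19.8 and 12.5 CPM, and the OVX8_SCI7 libraries at 5.91, 7.48, 5.39 and 6.10 CPM. Every OVX8_SCI7 library lay far below the lowest SCI7 library. The mean went from 15.6 ± 3.18 to 6.22 ± 0.892 CPM (SD, n = 4), to 0.400 of the SCI7 level, a log2 fold change of -1.32 (95% interval -1.80 to -0.85, edgeR adjusted p = 0.0143). The OVX2_SCI7 libraries took the middle, at 10.7, 11.0, 6.16 and 9.23 CPM. They too lay below all SCI7 libraries, while the log2 value of -0.75 (95% interval -1.22 to -0.29) had an edgeR adjusted p of 0.0566 and was not called. Against OVX2_SCI7, 3 of the 4 OVX8_SCI7 libraries were below every library, with a log2 difference of -0.57, an unadjusted p of 0.0210 and an adjusted p of 0.999 by edgeR.

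With the GC and length offset the Sox11 difference in OVX8_SCI7 was -1.03 (95% interval -1.45 to -0.62), with an unadjusted p of 1.61e-04 and an edgeR adjusted p of 0.0894. The offset thus took it out of the calls, though 0 of all genes tested were called in this comparison with the offset. Without replicate 2 of OVX8_SCI7 it was -1.42, with an edgeR adjusted p of 0.0573. Sox11 rested on fewer counts than most of the 9, with 108 to 241 counts per library outside SCI7 and 247 or more within it. Summed pan-neuronal markers overlapped between the groups, at 1503 to 4053 TPM in SCI7 and 1548 to 2698 TPM in OVX8_SCI7. Single markers differed in direction, from a log2 difference of -1.50 for Elavl4 to 0.64 for Tubb3, with 0 of 10 called by edgeR. Snap25 weighed most in the sum, reaching 2065 TPM in SCI7, so the overlap does not show that neuronal content was unchanged. Set against those markers, Sox11 stood at 0.107 to 0.184 TPM per 100 TPM of marker in SCI7 and at 0.043 to 0.0853 TPM in OVX8_SCI7, ranges that did not overlap. This ratio is without the offset, and the markers have 38.9 to 58.6% GC. The part of GC content in it was not tested.

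Atf3, a stress-induced partner of Jun and a common label of neurons with a cut axon, varied most in OVX2_SCI7. It stood at 35.2, 26.6, 25.2 and 32.3 CPM in SCI7. The OVX2_SCI7 libraries were at 16.8, 54.2, 56.5 and 82.0 CPM, so replicate 1 was the lowest of all 12 libraries and the other 3 lay above all of SCI7. OVX8_SCI7 stood at 61.7, 49.5, 30.3 and 39.7 CPM, with 3 of 4 libraries above all of SCI7. The log2 difference was 0.81 (95% interval -0.00 to 1.63, edgeR adjusted p = 0.155) for OVX2_SCI7 and 0.60 (-0.21 to 1.41, adjusted p = 0.230) for OVX8_SCI7. Neither passed. Without replicate 1 of OVX2_SCI7 the value for that group was 1.09, with an edgeR adjusted p of 0.00703. That fit called 6264 genes in all. Fitted on the 8 libraries of OVX8_SCI7 and SCI7 alone, Atf3 passed at 0.59 with an edgeR adjusted p of 0.0490, where 7426 genes were called.

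Klf6, a Kruppel-like factor that promotes axon growth and is also made by macrophages and endothelial cells, was the only factor besides Sox11 with lower means in both ovariectomy groups. It stood at 102, 96.7, 73.3 and 107 CPM in SCI7, at 65.9, 52.8, 86.0 and 88.6 CPM in OVX2_SCI7 and at 74.7, 58.3, 56.2 and 78.8 CPM in OVX8_SCI7. The ranges overlapped through replicate 3 of SCI7, the lowest of its group. The log2 difference for OVX8_SCI7 was -0.50 (95% interval -0.92 to -0.08), with an edgeR adjusted p of 0.0713, and it passed with a stricter low-count filter (-0.54, adjusted p = 0.0479). Klf6 has the lowest GC content of the 9, at 42.4%, and with the GC and length offset the value turned to 0.08 (edgeR adjusted p = 0.863).

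Gap43, a membrane protein of growth cones phosphorylated by protein kinase C, did not pass in any comparison. It stood at 122, 99.6, 142 and 91.3 CPM in SCI7, at 103, 186, 83.0 and 99.4 CPM in OVX2_SCI7, and at 103, 131, 95.6 and 79.8 CPM in OVX8_SCI7. The 3 groups overlapped almost fully, and replicate 2 of OVX2_SCI7 was the highest library. For OVX8_SCI7 against SCI7 the log2 difference was -0.15, with a 95% interval from -0.70 to 0.40.

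Basp1, a growth cone protein that resembles Gap43 in its membrane attachment, stood at 151, 114, 126 and 109 CPM in SCI7. It stood at 95.2, 132, 176 and 200 CPM in OVX2_SCI7 and at 218, 195, 141 and 103 CPM in OVX8_SCI7. Both ovariectomy groups reached above and below the SCI7 range. The log2 difference for OVX8_SCI7 was 0.39 (edgeR adjusted p = 0.272), and with the GC and length offset it was -0.28, the transcript having the highest GC content of the 9 at 56.4%.

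Stmn2, a tubulin-binding stathmin carried to growing axon tips, was high where neuronal markers were high. It stood at 301, 225, 418 and 153 CPM in SCI7, at 346, 410, 125 and 172 CPM in OVX2_SCI7, and at 179, 195, 196 and 131 CPM in OVX8_SCI7. Replicate 3 of SCI7 and replicates 1 and 2 of OVX2_SCI7 were high, and the same 3 libraries had the highest summed pan-neuronal markers of the 12, at 4053, 3578 and 3989 TPM. The OVX8_SCI7 difference of -0.65 (95% interval -1.48 to 0.18) had an edgeR adjusted p of 0.209. Per 100 TPM of summed pan-neuronal markers, Stmn2 stood at 9.73 to 10.2 TPM in SCI7, at 8.19 to 10.4 TPM in OVX2_SCI7 and at 6.95 to 8.12 TPM in OVX8_SCI7. The last range lay below that of SCI7. On the log2 CPM scale Stmn2 lay 0.45 to 0.54 above the mean of these markers in SCI7 and -0.06 to 0.21 in OVX8_SCI7, and after the GC and length offset the ranges were 0.17 to 0.33 and 0.18 to 0.33. The separation was thus absent after the offset.

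Sprr1a, a protein of the cornified skin envelope that injured peripheral neurons also make, stood at 35.3, 30.1, 52.5 and 33.7 CPM in SCI7. It stood at 24.7, 60.1, 27.1 and 61.5 CPM in OVX2_SCI7, where replicates 2 and 4 were above all of SCI7 and the other pair below it. In OVX8_SCI7 it stood at 42.9, 53.5, 16.7 and 24.2 CPM, again on both sides of SCI7. The log2 difference for OVX8_SCI7 was -0.14 (SE 0.39, edgeR adjusted p = 0.808), and with the offset -0.84 (unadjusted p 0.0618, edgeR adjusted p = 0.352). Summed markers of keratinocytes stayed between 8.48 and 16.6 TPM in all 12 libraries. This sum hides opposite moves, with edgeR log2 differences of 1.29 for Lor and -0.96 for Trp63 in OVX8_SCI7 against SCI7.

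Gal encodes the neuropeptide galanin, which sensory and motor neurons increase after their axons are cut. It stood at 8.72, 5.96, 11.6 and 7.67 CPM in SCI7, and at 11.1, 10.4, 5.74 and 5.61 CPM in OVX8_SCI7. These 2 groups overlapped, with a log2 difference of -0.04 (95% interval -1.30 to 1.22). OVX2_SCI7 held both the lowest and the highest library of the 12, at 1.27, 22.7, 11.6 and 13.6 CPM, a span of 17.8-fold from replicate 1 to replicate 2. Its log2 difference from SCI7 was 0.54 (edgeR adjusted p = 0.532). Without replicate 1 it was 0.90 (adjusted p = 0.0555), and without replicate 2 it was 0.06 (adjusted p = 0.957).

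Replicate 2 of OVX2_SCI7 also held transcripts of dorsal root ganglion sensory neurons, cells that lie outside the cord. Its summed level of 12 such markers was 320 TPM, against 5.16 to 56.8 TPM in the other 11 libraries. Among them Avil reached 74.2 TPM there and Scn10a, a sodium channel of pain-sensing neurons, 27.0 TPM. Summed motor neuron markers were 349 TPM in that library and 36.6 to 127 TPM elsewhere. Of the 349 TPM, Prph alone gave 295 TPM, so that sum rested mostly on this gene. Summed Schwann cell markers were 1619 TPM there against 329 to 1094 TPM elsewhere. In TPM, Gap43 (297), Stmn2 (415), Sprr1a (206), Atf3 (73.2) and Gal (81.3) were highest of the 12 in this library. In CPM only Gap43 and Gal were highest there. Jun at 71.8 TPM and Sox11 at 2.49 TPM in that library lay within the range of the other libraries. The part of root or ganglion tissue in the values of these genes was not tested.

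**Figure D2:**
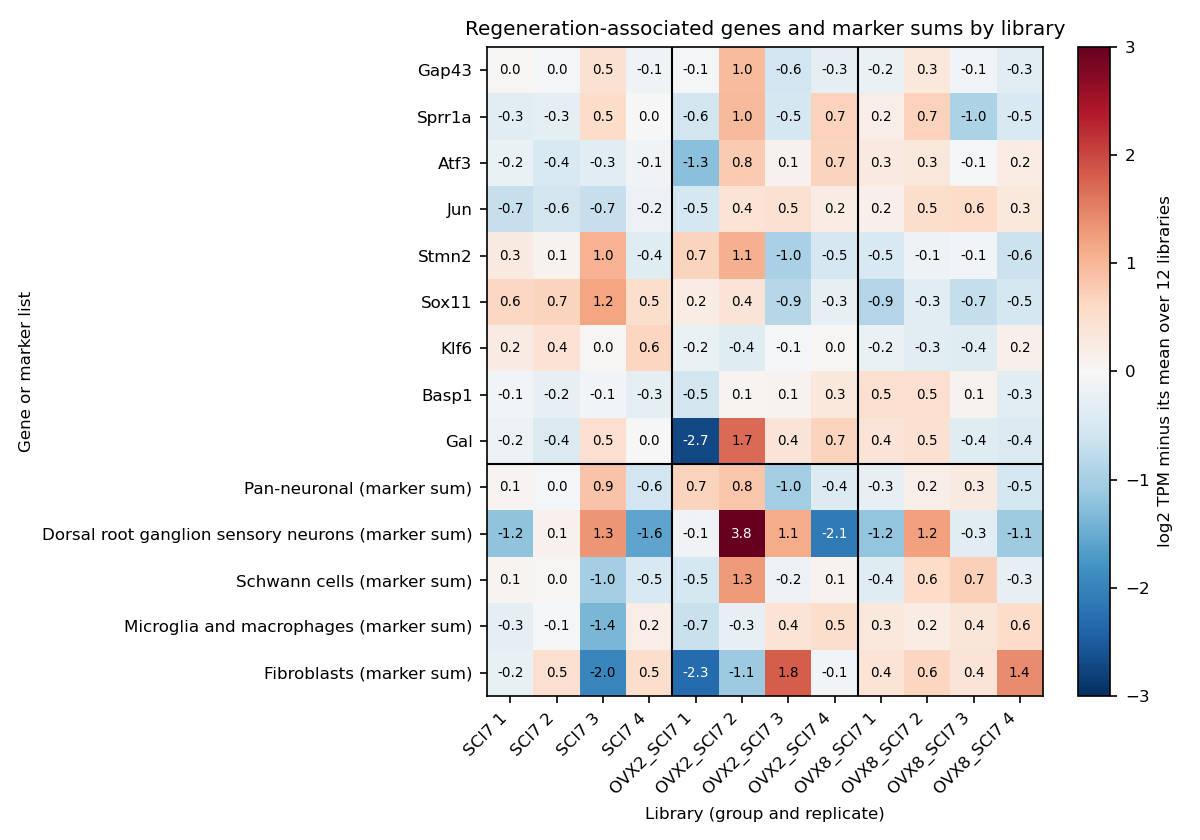
Each cell gives the log2 TPM of a gene (upper block), or of a summed marker list (lower block), in 1 library minus its mean over the 12 libraries, with red above and blue below the mean. Replicate 2 of OVX2_SCI7 holds the highest value of the 12 for Gap43, Sprr1a, Atf3, Stmn2 and Gal and for the sensory neuron sum, at 320 TPM. Sox11 is above its mean in the 4 SCI7 libraries and below it in the 4 OVX8_SCI7 libraries.

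Across the 9 genes, the quasi-likelihood test of edgeR called 0 in OVX2_SCI7 against SCI7, where it called 0% of all genes tested. Over all genes the smallest adjusted p was 0.0520, and 5787 genes (32.5%) had an unadjusted p under 0.05. Among the 9, Jun had an unadjusted p of 0.00302 and Sox11 of 0.00418, and both were called by DESeq2, which called 3579 genes. limma-voom called 0 of the 9 and 893 genes, and limma-trend on log2(TPM + 1) called 0 of the 9 and 16 genes. Sox11 was the 1 gene of the 9 whose libraries did not overlap between these groups, on the lower side, as for 6.29% of all genes. None lay fully on the higher side, where 6.13% of all genes did. The median log2 difference of the 9 was 0.20, against 0.04 over all genes, and 6 of 9 were above 0. Without replicate 1 of OVX2_SCI7, edgeR called Atf3, Jun and Sox11 here and 6264 genes in all.

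In OVX8_SCI7 against SCI7, edgeR called 2 of the 9, Jun higher and Sox11 lower, where 27.5% of all genes were called (11.9% higher and 15.6% lower) and 43.2% had an unadjusted p under 0.05. The share among the 9 is near that background. The libraries of Jun did not overlap on the higher side, nor those of Sox11 on the lower, as for 19.6% of all genes on each side. The median log2 difference of the 9 was -0.14, against 0.01 over all genes, and 3 of 9 were above 0. The whole-table count fell to 0 without replicate 2 of OVX8_SCI7, and to 0 with the GC and length offset. Both comparisons use the same 4 SCI7 libraries, so their values for a gene are not independent of each other.

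OVX8_SCI7 and OVX2_SCI7 were compared directly, and edgeR called 0 of the 9 and 0% of all genes, with 393 genes (2.21%) at an unadjusted p under 0.05. DESeq2 called 0 of the 9 and 3 genes, and limma-voom and limma-trend on log2(TPM + 1) called none of either. The libraries of all 9 overlapped between these groups, while 0.241% of all genes lay fully higher and 1.08% fully lower. The log2 differences of the 9 ran from -0.59 for Stmn2 to 0.12 for Jun and Basp1. In the joint edgeR test of the 3 groups, Jun (adjusted p = 0.0334) and Sox11 (adjusted p = 0.0285) passed, where 14.8% of all genes were called. Neither passed with the replicate block, with any form of the GC and length offset, or in 7 of the 12 fits that left out 1 library. Those 7 fits were without replicates 1, 2 or 3 of SCI7, replicate 4 of OVX2_SCI7, or replicates 1, 2 or 3 of OVX8_SCI7, and they called 0 or 1 of all genes tested. The other 7 had adjusted p-values of 0.154 for Klf6 and above.

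**Figure D3:**
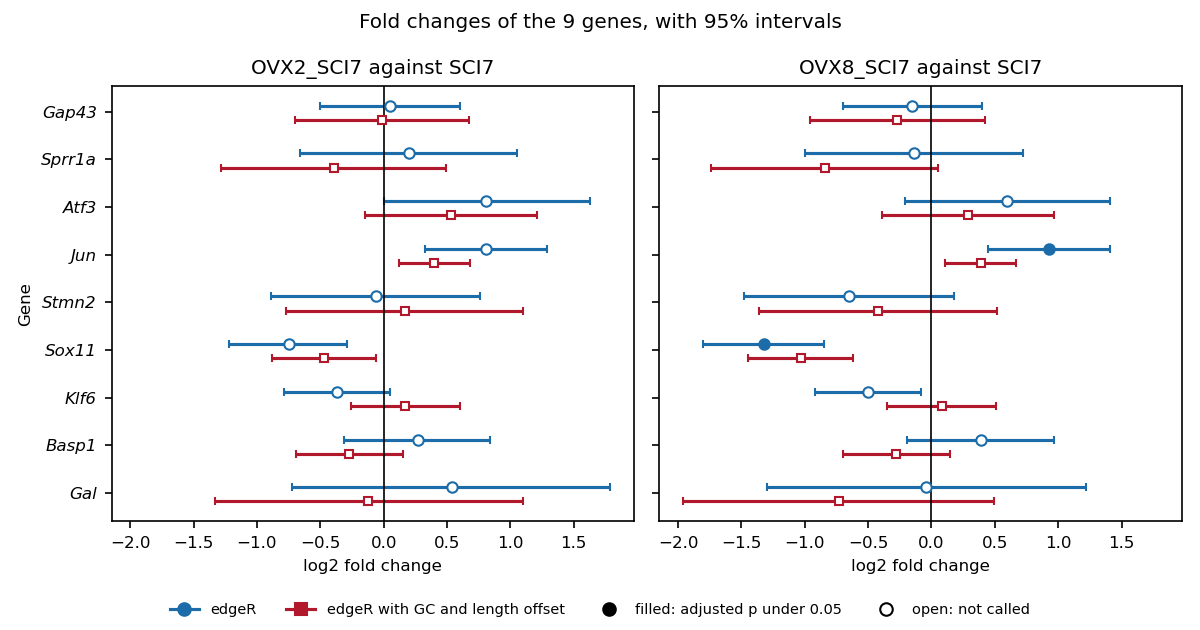
Log2 fold changes of the 9 genes against SCI7 with 95% intervals, from edgeR (blue circles) and from edgeR with the GC and length offset (red squares), with filled symbols at an adjusted p under 0.05. For OVX8_SCI7, Jun at 0.93 and Sox11 at -1.32 are filled without the offset and open with it, at 0.39 and -1.03.

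The spread of OVX2_SCI7 was wide over the whole table. For 7 of the 9 genes the coefficient of variation of CPM was largest in this group, all but Sprr1a and Basp1. The same held for 69.6% of all genes tested, so the share among the 9 is near that background. Replicate 1 of OVX2_SCI7 was the lowest of the 12 libraries for 3 genes, Atf3, Basp1 and Gal, and its mitochondrial share of 8.33% lay inside the SCI7 range. Its fibroblast markers summed to 456 TPM, the lowest of the 12 libraries, and its microglia and macrophage markers to 2088 TPM. The part of these differences in its Atf3 and Gal levels was not tested.

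Other genes of the same pathways were counted from lists of 74 distinct genes tested, to be read against the 27.5% of all genes called in OVX8_SCI7 against SCI7 (11.9% higher and 15.6% lower). AP-1 and ATF partners of Jun and Atf3 had 3 of 12 higher and 1 lower in that comparison, near the 27.5% called over all genes, with a median log2 difference of 0.65. Jund, a Jun paralog that forms AP-1 in resting cells, rose from 50.8 ± 3.59 to 142 ± 43.5 CPM (SD, n = 4). Atf5 rose by 0.94 on the log2 scale and Batf3, a factor of dendritic cells, by 1.63. Batf3 was low, at 0.567 ± 0.0781 CPM in SCI7, with at most 13 counts in a library, and at 1.77 ± 0.459 CPM in OVX8_SCI7. Atf2, which pairs with Jun on cyclic AMP response elements, fell from 92.6 ± 13.4 to 45.9 ± 4.15 CPM.

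Of 12 genes of the kinase route to Jun, 1 was higher and 2 were lower in that comparison, near the 27.5% called over all genes, with a median of -0.02. Map2k7, a kinase that activates JNK, rose by 0.45 on the log2 scale. Mapk8, which encodes JNK1, had a log2 fold change of -1.03, and the scaffold gene Spag9 one of -0.63. The list's upstream kinase gene Map3k12, which encodes DLK, had a log2 difference of 0.15 (edgeR adjusted p = 0.551).

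The list of other injury-induced genes held 27 tested genes of 30, of which 0 were higher and 6 lower, with a median of 0.40. Over all genes 11.9% were called higher and 15.6% lower. The 6 were Klf7, Crem, Flrt3 and Fgf2, with Nts and Adcyap1, neuropeptide genes outside the naming rule that were chosen after their values were seen. Fgf2, a growth factor, fell from 89.6 ± 16.5 to 46.6 ± 8.52 CPM, and Flrt3, a neurite outgrowth protein, from 25.6 ± 6.20 to 13.7 ± 0.855 CPM (SD, n = 4). Those lower calls stand beside a median above 0, since most other genes of the list had differences above 0 that did not pass.

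Kruppel-like factors had 3 higher and 1 lower of 8 tested, with a median of 0.62, where 11.9% of all genes were called higher and 15.6% lower. Klf13 rose by 0.58 on the log2 scale, Klf16 by 0.75 and Klf2, a factor of endothelial and immune cells, by 1.35, while Klf7, which promotes axon growth, had -0.65. Among Gap43 and Basp1 relatives 1 of 8, Marcks, was lower (-0.72). No stathmin relative (0 of 3), SoxC relative of Sox11 (0 of 2) or galanin receptor (0 of 3) was called by edgeR. The SoxC genes Sox4 and Sox12 had log2 differences of -0.17 and 0.60. In OVX2_SCI7 against SCI7 and in OVX8_SCI7 against OVX2_SCI7, edgeR called 0 genes of these 8 lists.

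GC content separated the listed genes that were called. The 7 called higher had transcripts of 55.5 to 67.1% GC, and the 10 called lower had 39.4 to 45.3% GC, Klf7 standing in 2 lists. With the GC and length offset edgeR called 0 of all genes tested in this comparison, so the loss of these calls is not particular to them. Their log2 values then ran from -0.14 to 0.62 and from -0.48 to -0.15. Jun, at 55.5% GC, and Sox11, at 46.5% GC, lay on the same sides. The log2 value of Sox11 lay outside the range of the genes called lower in both fits. Without the offset it was -1.32, against -1.11 to -0.63 for those genes, and with the offset it was -1.03. The part of GC content in the Sox11 difference was not tested.

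**Figure D4:**
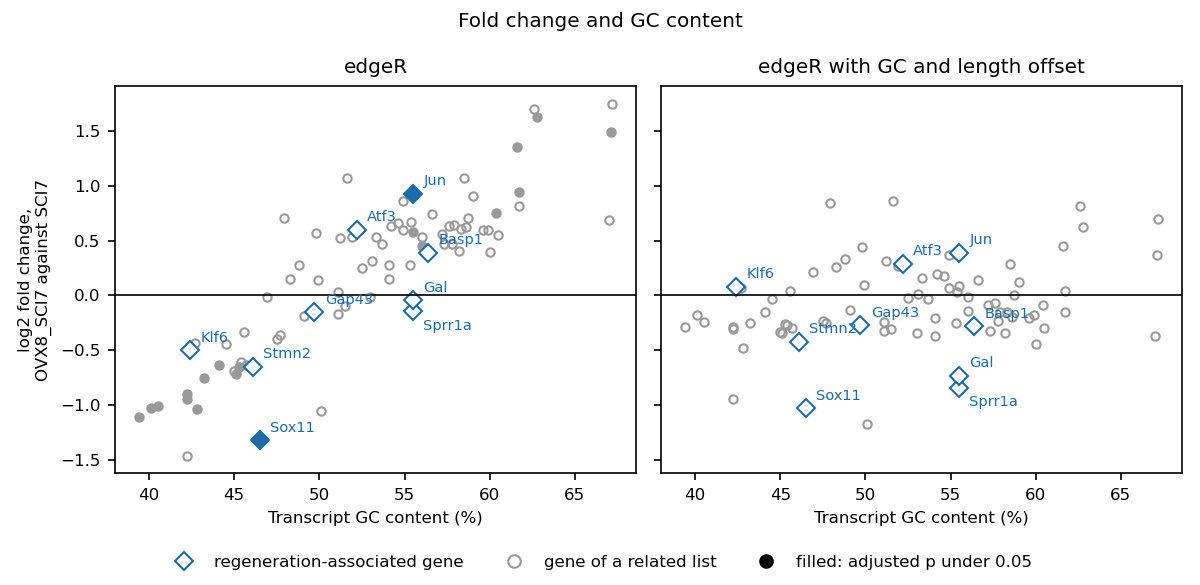
Log2 fold change in OVX8_SCI7 against SCI7 by transcript GC content for the 9 genes (diamonds) and the genes of related lists (circles), from edgeR at left and with the GC and length offset at right, with filled symbols at an adjusted p under 0.05. At left the values rise with GC content. The offset is fitted to remove such a trend, so its loss at right was set by the method. Sox11 goes from -1.32 to -1.03 while Jun goes from 0.93 to 0.39.

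For each gene the transcripts with the most similar pattern were taken by Pearson correlation of log2 CPM over the 12 libraries, among 12435 genes, as a description. Jun was most like Gga1 (0.995), Cant1 (0.994) and Ddx39b (0.993). Sox11 was most like Zdhhc2 (0.947), Acss3 (0.942) and Mmachc (0.940). Zdhhc2 had group means of 70.1, 35.9 and 24.7 CPM in SCI7, OVX2_SCI7 and OVX8_SCI7, the same order as Sox11. Stmn2 was most like Ywhah (0.987), Nicn1 (0.984) and Ttc9 (0.978), and Gap43 was most like the neuronal genes Celf6 (0.924) and Cacna1b (0.908).

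Klf6 was most like Hnrnpa2b1 (0.982), Atg4a (0.976) and Cct4 (0.964), and Atf3 most like Trp53rka (0.941), Abhd14a (0.930) and Itpa (0.929). Basp1 was most like Mrpl58 (0.937), Nsmce3 (0.924) and Bloc1s4 (0.923). Gal was most like Ctxn1 (0.880), Ppp1r1a (0.860) and Npy (0.833), the last another neuropeptide gene. Sprr1a had the weakest matches, with Cgref1 at 0.725, Zcchc3 at 0.721 and Cda at 0.688. Of these 27 nearest genes, 12 were still among the nearest without replicate 2 of OVX2_SCI7, and 2 after the GC and length offset. No other library was left out here.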

How the data were processed

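The submitters' processing notes name fastp 0.23.4 for trimming, HISAT2 2.2.1 with the GRCm39 genome for alignment and RSEM 1.3.3 for quantification. The authors deposited expected counts (estimated counts, rounded to whole numbers here), TPM, which scales by length and library, and FPKM, which divides fragments by length and library size. Their 3 columns of group means per table were not used. The library kit is not given in the sources used here.

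Groups and replicate numbers came from the labels. The counts of 17820 genes kept by filterByExpr were fitted with edgeR 4.0.16 (R 4.3.3) over all 12 libraries, with TMM scaling, the group as the only term and the robust quasi-likelihood F-test. P-values were Benjamini-Hochberg adjusted over all genes tested, with a threshold of 0.05, and the common biological coefficient of variation was 0.312. CPM used TMM-scaled library sizes. The scripts were checked on simulated counts. At these depths 3 counts correspond to between 0.0944 and 0.165 CPM, a limit from counting error only.

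Alternatives were DESeq2 1.42.0, its size factors, other filters (none, or at least 1 CPM in 4 libraries with a mean of 50 counts), limma 3.58.1 (voom, and trend on log2(TPM + 1)), the 8 libraries of a comparison, a replicate block, left-out libraries, and a GC and length offset. The offset is a spline with 5 degrees of freedom per library over genes of at least 5 CPM, with GC content and length from a GRCm38 annotation for 17448 of the genes tested. The 9 genes, the pathway and marker lists and the naming rule (all 9 genes, up to 4 genes per pathway list by the joint test, and the 3 most similar genes by Pearson correlation, 1 of which is not reported here) were chosen with earlier results of these data known.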

Additional observations from a re-analysis of the deposited data

Results flagged for a closer look

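The summed level of 12 dorsal root ganglion sensory neuron markers was 320 TPM in replicate 2 of OVX2_SCI7, against 5.16 to 48.6 TPM in the other 3 libraries of that group. Its gap to the nearest library took 0.862 of the group's range, above Dixon's 95% critical value for 4 samples. The levels of the 9 regeneration-associated genes and of the marker lists gave 60 groups examined in this way, 27 of genes and 33 of marker lists, and chance flags about 1 in 20. No group of the 9 genes themselves passed this criterion, although Gal spanned 17.8-fold within OVX2_SCI7.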

How the results depend on the processing

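The count of the 9 genes called in OVX2_SCI7 against SCI7 (0, with 0 of all genes) became 1 with the stricter filter (1144 genes). It became 2 with DESeq2 (3579 genes) and 3 without replicates 1 and 2 of OVX2_SCI7 (7141 genes). With each library left out in turn it was 0 to 3 (0 to 6264 genes). In OVX8_SCI7 against SCI7 the 2 calls, Jun and Sox11, stood beside 4893 genes in all. They became 4, with Atf3 and Klf6 added, on the 8 libraries alone (7426 genes) and without replicates 1 and 2 of OVX2_SCI7 (7720 genes). The count was 0 with the GC and length offset in each of its 3 forms (0 or 1 genes). With single libraries left out it was 0 to 3 (0 to 6710 genes). The joint test (2) gave 1 with limma-trend on TPM, 0 with each form of the offset and 0 to 3 with single libraries left out. It gave 0 in 7 of 12 such fits, and over the 12 fits 0 to 6058 of all genes were called. Causes were not tested. OVX8_SCI7 against OVX2_SCI7 gave 0 in every setting.

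Whether replicate numbers pair the libraries was not settled. Deviations of same-numbered libraries correlated at -0.626 to 0.500 over 12 pairs. These were not set against differently numbered libraries, so they cannot decide it. With the replicate block edgeR called 2 of the 9 and 3390 genes in OVX8_SCI7 against SCI7 (4893 without it). In the joint test with the block it called 0 of the 9. Ranked by CPM, which ignores length, 2 of the 9 genes kept their place in the order of levels.

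Of the log2 values of single genes, 567 kept direction and side of the threshold, 15 newly passed, 8 no longer passed and 58 changed sign. In OVX2_SCI7 against SCI7, Gap43 (0.05) became -0.00 with limma-voom, -0.07 on TPM, -0.01 with the block, -0.31 without replicates 1 and 2, and -0.01 with the offset, -0.09 with the block added and -0.40 without replicate 2. In the same 3 forms of the offset Sprr1a became -0.39, -0.52 and -0.72, Klf6 0.17, 0.16 and 0.26, Basp1 -0.27, -0.24 and -0.21 and Gal -0.12, -0.39 and -0.90, and Stmn2 became 0.17 and 0.15 in the first pair. In OVX8_SCI7 against SCI7, Klf6 became 0.08, 0.09 and 0.08 and Basp1 -0.28 in each, and Gal became 0.02 without a filter and 0.04 on TPM. In OVX8_SCI7 against OVX2_SCI7, Atf3 became 0.11 on TPM. Without replicates 1 and 2, Gap43 became 0.17, Jun -0.17, Stmn2 0.24 and Basp1 -0.19. With the offset Jun and Basp1 became -0.01, Basp1 -0.04 with the block, and without replicate 2 Gap43 became 0.13, Jun -0.05, Basp1 -0.07 and Gal 0.16. Leaving out single libraries gave ranges across 0 for Gap43 (-0.24 to 0.19), Stmn2 (-0.34 to 0.20) and Sprr1a (-0.01 to 0.38) in OVX2_SCI7 against SCI7, for Sprr1a (-0.43 to 0.08) and Gal (-0.22 to 0.14) in OVX8_SCI7 against SCI7, and for Jun (-0.06 to 0.29), Basp1 (-0.04 to 0.29), Gap43 (-0.34 to 0.08) and Atf3 (-0.50 to 0.07) in OVX8_SCI7 against OVX2_SCI7.

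With 4 libraries a group, the 95% interval of Gal in OVX8_SCI7 against SCI7 ran from -1.30 to 1.22, so even 2-fold differences in either direction lay inside it. Counts were lowest for Gal and Sox11, with 24 and 108 in their lowest libraries, and depth was not tested as a limit. Uninjured and sham-operated cord was not analysed here, and age may differ between groups.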
